A study of Rattus norvegicus with 48 samples.

Results

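The BCL2 family of cell death was followed in cerebral endothelial cells (CECs), the cells that line the blood vessels of the brain and form the blood-brain barrier, during 1, 2 or 3 days of fasting. The family was taken as 10 genes listed by symbol, namely the pro-death members Bax, Bak1, Bad, Bid, Bcl2l11, Bbc3 and Bmf and the pro-survival members Bcl2, Bcl2l1 and Bcl2l2. Of these, 9 had an identifier in the tables used here, all 9 were detected with 1 read or more in every one of the 12 samples, and they belong to the 13050 features tested out of 32624 in the count files. Bbc3 had no identifier and is not analysed here.

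CECs came from the cortex of male Wistar-Han rats with free access to food (ad libitum, AL rats) or deprived of food for 1 day (F1 rats), 2 days (F2 rats) or 3 days (F3 rats). The sources used here name no genetic change, and the age of the rats was not given there. Before cell isolation the rats were anesthetized with diazepam and ketamine and perfused with a buffer that held heparin. No other drug treatment is named for these samples. Cortices were pooled, cells bearing the microglial protein CD11b were removed, and cells bearing the endothelial protein CD31 were retained on magnetic columns. Each group had 3 samples from independent experiments, written as samples i, j and k, and a sample is the sum of its 4 technical replicates.

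Proteins of the BCL2 family decide whether the outer membrane of mitochondria stays closed. Bax and Bak1 encode the effectors, which form pores that release cytochrome c, and the pro-survival proteins hold them in check by binding. The BH3-only proteins sense stress and either block the pro-survival proteins or activate the effectors, and several of them are regulated at the level of transcription when growth factors or nutrients are withdrawn.

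Of the 9 members tested, Bcl2l11 passed the edgeR threshold as higher in F1 and F3 rats and Bid in F3 rats, relative to AL rats. Both genes encode BH3-only proteins. Over all features, 6.56% passed in F1 and 12% in F3 against AL, shares from which these counts cannot be set apart. The Bcl2l11 call was kept in 11 of 21 settings in F1 and 15 of 21 in F3 rats, and the Bid call in 15 of 21. Bcl2l11 in F2 rats had a Log2 fold change of 0.49 that did not pass (edgeR adjusted p = 0.212). The effectors Bax and Bak1 and the pro-survival members did not pass the threshold in edgeR in any of the 5 comparisons. Bmf, another BH3-only member, had its lowest mean in F2 rats. Its differences for F2 against F1 and for F3 against F2 came close to the threshold without passing it in the edgeR test. That for F2 against AL did not come close (edgeR adjusted p = 0.642).

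The promoter windows of the members that passed the threshold are printed first, together with that of Bad, which did not and which holds the same motif as Bcl2l11. They are the RefSeq sequences of 300 bases around the start of each gene in the rat assembly GRCr8, a later build than the one used for the counts, read 5′ to 3′ on the strand of the gene. RefSeq windows were matched for 8 members, with 11 windows in all, of which 4 belong to Bcl2l1. Capitals mark the forkhead (FOXO) core GTAAACA or its reverse complement TGTTTAC.
Bcl2l11, chr3:135819792-135820091, plus strand: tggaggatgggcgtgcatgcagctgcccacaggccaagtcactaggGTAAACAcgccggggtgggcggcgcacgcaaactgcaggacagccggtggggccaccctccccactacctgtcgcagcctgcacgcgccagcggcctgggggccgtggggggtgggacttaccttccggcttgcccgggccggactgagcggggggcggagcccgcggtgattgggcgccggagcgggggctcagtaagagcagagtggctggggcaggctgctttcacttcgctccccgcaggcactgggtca
Bid, chr4:155808270-155808569, minus strand: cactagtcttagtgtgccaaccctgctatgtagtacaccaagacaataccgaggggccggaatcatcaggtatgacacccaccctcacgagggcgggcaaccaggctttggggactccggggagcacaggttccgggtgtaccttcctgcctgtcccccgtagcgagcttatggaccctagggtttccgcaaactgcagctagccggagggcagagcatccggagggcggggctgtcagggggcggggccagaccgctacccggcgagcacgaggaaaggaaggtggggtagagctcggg
Bad, chr1:213562864-213563163, plus strand: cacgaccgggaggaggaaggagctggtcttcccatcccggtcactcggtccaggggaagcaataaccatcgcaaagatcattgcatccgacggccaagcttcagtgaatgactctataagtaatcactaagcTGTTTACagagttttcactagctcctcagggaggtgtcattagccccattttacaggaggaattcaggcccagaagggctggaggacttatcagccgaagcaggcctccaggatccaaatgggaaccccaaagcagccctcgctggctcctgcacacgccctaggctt
FOXO factors are active when insulin signalling is low, and Bcl2l11 is one of their known target genes. The core GTAAACA, searched on both strands, was present in 2 of the 11 windows, those of Bcl2l11 and Bad, against 3.78% of 33469 rat promoter windows of the same length. The E-box CACGTG, which reads the same on both strands, was in 0 of the 11 windows against 6.42% of all windows, and the AP-1 motif TGAGTCA, searched with its reverse complement TGACTCA, was in 0 against 4.63%. With 11 windows, 4 of them of Bcl2l1, counts of 2 and 0 cannot be set apart from these shares. None of these motifs overlaps another. The window of Bcl2l11 had a GC content of 71.0%, that of Bid 63.3% and that of Bad 54.3%. Such a match describes letters in the window and does not show binding.

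Values are given as normalized counts, which are reads scaled to a common library size by the TMM method. They compare samples for 1 gene but not genes with each other, because the lengths of the transcripts were not used. Changes are Log2 fold changes (LFC) ± the standard error (SE) with a 95% interval, and adjusted p-values come from the quasi-likelihood test of edgeR with Benjamini-Hochberg adjustment over all features tested, with a threshold of 0.05. A sample held between 20718644 and 25960874 reads assigned to genes, and the reads behind a single member in a sample ranged from 42 for Bid to 10944 for Bcl2l1. F2 sample j stood apart in its effect on the fit: without it, 1451 instead of 856 features passed in F1 against AL and 2368 instead of 1572 in F3 against AL, and the calls of Bcl2l11 were kept (edgeR adjusted p = 0.0343 and 0.0269). The counting error alone was 12.4% of the mean for Bid, 9.11% for Bcl2, 6.16% for Bmf and 3.07% for Bcl2l11, against a spread within groups of 14.8%, 17.0%, 18.3% and 15.4%. For Bcl2l1 the counting error was 1.08% and the spread within groups 10.8%. Thus for Bid most of the spread between samples is of the size that counting gives, and for Bcl2l11 and Bcl2l1 it is not. In bulk samples of sorted cells, fewer cells of a type and less RNA per cell cannot be told apart.

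**Figure D1:**
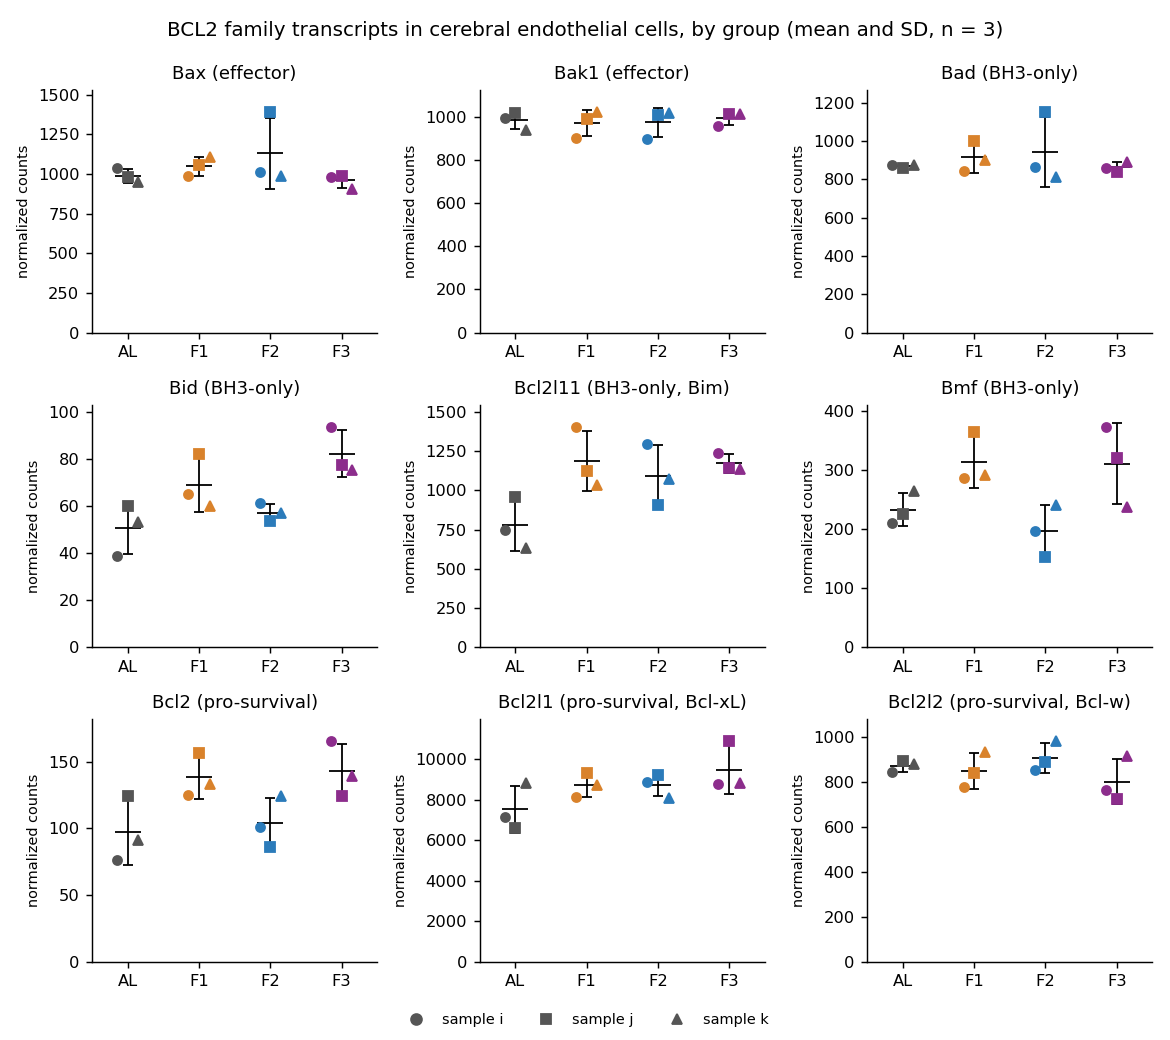
Normalized counts (vertical axes, linear, from 0) of the 9 members tested in each sample of AL, F1, F2 and F3 rats, with one point per sample and black bars for the mean ± SD of 3 samples. The Bcl2l11 panel shows all F1 and F3 samples above the highest AL sample, and the Bmf and Bcl2 panels show F1 and F3 means above those of AL and F2 rats.

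Bcl2l11 (ENSRNOG00000016551) encodes Bim, a BH3-only protein that binds all pro-survival members and can activate Bax directly. Its normalized counts were 749, 958 and 630 in AL rats, 1405, 1120 and 1037 in F1 rats, 1297, 909 and 1075 in F2 rats, and 1239, 1140 and 1136 in F3 rats. All 3 F1 samples and all 3 F3 samples lay above the highest AL sample, whereas F2 sample j lay below it. The means ± SD (n = 3) were 779 ± 166 in AL, 1187 ± 193 in F1, 1094 ± 195 in F2 and 1172 ± 58.4 in F3 rats. The LFC relative to AL rats was 0.61 ± 0.16 in F1 rats (95% interval 0.25 to 0.96, edgeR adjusted p = 0.0452). In F3 rats it was 0.59 ± 0.16 (0.24 to 0.94, edgeR adjusted p = 0.0344). In F2 rats it was 0.49 ± 0.16 (0.14 to 0.84) and did not pass the threshold (edgeR adjusted p = 0.212). Neither comparison between successive days passed. The LFC was -0.12 for F2 against F1 (-0.47 to 0.23, edgeR adjusted p = 0.759) and 0.10 for F3 against F2 (-0.25 to 0.45, edgeR adjusted p = 0.762). The order of the 4 means is therefore AL, F2, F3, F1, in which the neighbours F2 and F3 did not pass the test, and the step from AL to F2 did not either. F3 and F1 rats were not compared by a test.

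The Bcl2l11 calls are close to the threshold and depend on single samples. The adjusted p in F1 rats ranged from 0.00675 with DESeq2 to 0.153 without F1 sample i, and 11 of 21 settings kept the call. In F3 rats it ranged from 0.00592 to 0.119, and 15 of 21 settings kept the call. In F1 rats the call was lost without AL samples i (edgeR adjusted p = 0.140) or k (0.136), F1 samples i (0.153) or j (0.0952), F2 sample k (0.0608), or F3 samples i (0.0605), j (0.0596) or k (0.0580). In F3 rats it was lost without AL samples i (edgeR adjusted p = 0.103) or k (0.107), or F3 samples i (0.119), j (0.0665) or k (0.0657). The call also went with no filter on low counts (edgeR adjusted p = 0.0748 in F1 and 0.0595 in F3 rats) and, in F1 rats, with only the 6 samples compared (0.0922). The LFC stayed between 0.47 and 0.78 in F1 rats and between 0.47 and 0.76 in F3 rats over all 21 settings.

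Bid (ENSRNOG00000012439) encodes the BH3-only protein that links death receptors to mitochondria once caspase-8 has cleaved it. It had the fewest reads of the members, with normalized counts of 38.6, 60.2 and 53.3 in AL rats, 65.0, 82.0 and 59.8 in F1 rats, 61.1, 53.5 and 57.1 in F2 rats, and 93.7, 77.6 and 75.5 in F3 rats. The 3 F3 samples lay above all AL and all F2 samples, whereas the F1 and F2 samples overlapped with AL rats. The means ± SD (n = 3) were 50.7 ± 11, 68.9 ± 11.6, 57.3 ± 3.82 and 82.3 ± 9.997 in AL, F1, F2 and F3 rats. The LFC relative to AL was 0.70 ± 0.20 in F3 rats (95% interval 0.27 to 1.13, edgeR adjusted p = 0.0362). It was 0.45 ± 0.20 in F1 rats (edgeR adjusted p = 0.232) and 0.18 ± 0.21 in F2 rats (edgeR adjusted p = 0.762), so neither passed. F3 against F2 gave 0.52 ± 0.20 (edgeR adjusted p = 0.136). The F3 call was kept in 15 of 21 settings, and was lost without AL sample i (LFC 0.55, adjusted p = 0.136), AL sample k (0.0680) or any of F3 samples i (0.150), j (0.0617) and k (0.0591). With only the 6 samples compared it was lost as well (0.0505). Bid is thus the member with the largest LFC relative to AL rats and also the one with the largest counting error.

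Bmf (ENSRNOG00000007529) encodes a BH3-only protein that is held at the cytoskeleton and set free when cells lose their anchorage. Its normalized counts were 210, 225 and 264 in AL rats, 286, 365 and 292 in F1 rats, 196, 153 and 241 in F2 rats, and 373, 320 and 237 in F3 rats. All F1 samples lay above all AL and all F2 samples, whereas the F3 samples overlapped with both AL and F2 rats through sample k. The means ± SD (n = 3) were 233 ± 28.2 in AL, 314 ± 43.9 in F1, 197 ± 44.0 in F2 and 310 ± 68.4 in F3 rats. Relative to AL rats the LFC was 0.43 ± 0.19 in F1 (edgeR adjusted p = 0.203), -0.24 ± 0.19 in F2 (edgeR adjusted p = 0.642) and 0.42 ± 0.19 in F3 rats (edgeR adjusted p = 0.173). Between successive days the LFC was -0.68 ± 0.19 for F2 against F1 (95% interval -1.08 to -0.27, edgeR adjusted p = 0.0882) and 0.66 ± 0.19 for F3 against F2 (0.26 to 1.06, edgeR adjusted p = 0.0536). Neither passed in edgeR, while DESeq2 gave an adjusted p of 0.0250 and 0.0151 for these 2 comparisons. F3 against F2 also passed in edgeR with scaling to total counts (adjusted p = 0.0498), without F2 sample k (0.0348) and without F3 sample k (0.0355).

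Bad (ENSRNOG00000021147) encodes the BH3-only protein that is kept inactive by phosphorylation through AKT. Its normalized counts lay between 860 and 877 in AL rats, 841 and 1000 in F1 rats, 812 and 1151 in F2 rats, and 838 and 891 in F3 rats. The groups overlapped in each comparison, and F2 sample j was the highest sample. Relative to AL rats, the LFC was 0.07 in F1, 0.11 in F2 and -0.01 in F3 rats, each with an SE of 0.11, and the 95% interval in F3 rats ran from -0.25 to 0.23. Without F2 sample j the LFC in F2 rats was -0.05.

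Bax (ENSRNOG00000020876) encodes the effector that moves from the cytosol to mitochondria. Its normalized counts were 1036, 983 and 948 in AL rats, 986, 1053 and 1104 in F1 rats, 1010, 1389 and 989 in F2 rats, and 983, 989 and 906 in F3 rats. F2 sample j stood above the other 11 samples, which lay between 906 and 1104. The LFC relative to AL was 0.08 ± 0.11 in F1 (95% interval -0.16 to 0.32), 0.19 ± 0.11 in F2 (-0.05 to 0.43) and -0.04 ± 0.11 in F3 rats (-0.28 to 0.19). The F3 samples lay below the F2 samples, and the LFC for F3 against F2 was -0.24 ± 0.11 (edgeR adjusted p = 0.233). Without F2 sample j it was -0.06, and the LFC for F2 against AL was 0.02.

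Bak1 (ENSRNOG00000000485) encodes the effector that sits in the outer mitochondrial membrane from the start. Its normalized counts spanned only 898 to 1021 over the 12 samples, and the groups overlapped in each comparison. The means ± SD (n = 3) were 985 ± 41.3, 971 ± 62.2, 975 ± 66.4 and 995 ± 33.3 in AL, F1, F2 and F3 rats. Set against AL rats, its LFC was -0.02, -0.01 and 0.02, each with an SE of 0.08, and the 95% intervals of the 3 comparisons lay between -0.18 and 0.18. A change of Bak1 larger than these bounds is outside the intervals.

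Bcl2 (ENSRNOG00000002791), the founding pro-survival gene, had normalized counts of 76.4, 124 and 91.1 in AL rats, 125, 157 and 133 in F1 rats, 101, 86.2 and 124 in F2 rats, and 165, 124 and 139 in F3 rats. All F1 samples lay above all AL samples, by less than 1 normalized count at the nearest pair, and F3 sample j was level with AL sample j. The means ± SD (n = 3) were 97.3 ± 24.6 in AL, 138 ± 16.4 in F1, 104 ± 19.2 in F2 and 143 ± 20.7 in F3 rats. The LFC relative to AL was 0.51 ± 0.20 in F1 (95% interval 0.08 to 0.93, edgeR adjusted p = 0.160), 0.10 ± 0.20 in F2 (edgeR adjusted p = 0.885) and 0.56 ± 0.20 in F3 rats (0.13 to 0.98, edgeR adjusted p = 0.0875). The F3 difference passed without AL sample j (LFC 0.77, edgeR adjusted p = 0.0287). The intervals of Bcl2 and Bcl2l11 in F1 and F3 rats overlap over most of their length.

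Bcl2l1 (ENSRNOG00000007946) encodes Bcl-xL, a pro-survival protein of the outer mitochondrial membrane. Its normalized counts were 7127, 6605 and 8831 in AL rats, 8141, 9346 and 8748 in F1 rats, 8870, 9202 and 8102 in F2 rats, and 8766, 10884 and 8833 in F3 rats. AL samples i and j were the lowest of the 12 samples, whereas AL sample k lay among the fasted samples, so that each fasted group overlapped with AL rats. Against AL rats, the LFC was 0.22 ± 0.11 in F1 (95% interval -0.03 to 0.46, edgeR adjusted p = 0.308), 0.21 ± 0.11 in F2 (-0.03 to 0.46, edgeR adjusted p = 0.463) and 0.34 ± 0.11 in F3 rats (0.09 to 0.58, edgeR adjusted p = 0.0750). The F3 difference passed in DESeq2 (adjusted p = 0.0368) and in edgeR without AL sample k (LFC 0.47, adjusted p = 0.0199). The pseudogene Bcl2l1-ps1 was counted separately at 7.36 to 24.1 normalized counts per sample, and reads that match both copies equally were removed before counting.

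Bcl2l2 (ENSRNOG00000015732) encodes Bcl-w, the third pro-survival member listed. Its normalized counts lay between 844 and 896 in AL rats, 777 and 937 in F1 rats, 853 and 982 in F2 rats, and 726 and 916 in F3 rats. Its LFC relative to AL was -0.04 in F1, 0.06 in F2 and -0.12 in F3 rats, each with an SE of 0.10, and the groups overlapped in each comparison.

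**Figure D2:**
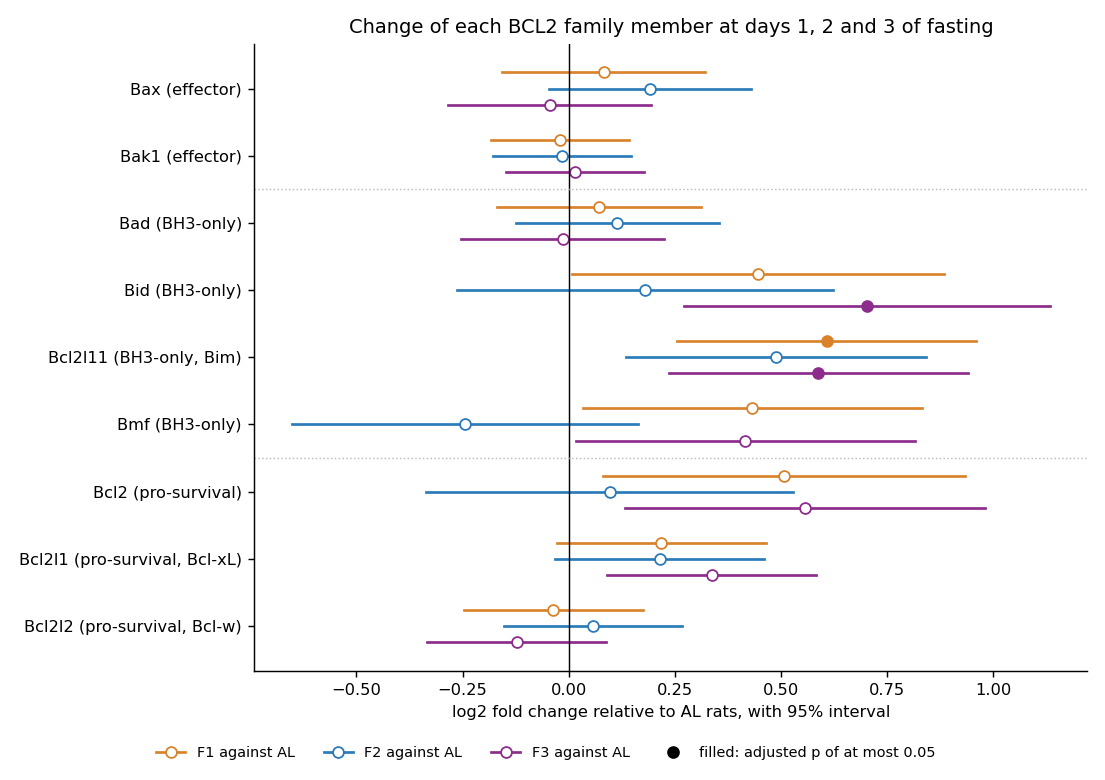
LFC relative to AL rats (horizontal axis) with its 95% interval for each of the 9 members in F1, F2 and F3 rats, ordered from effectors to BH3-only to pro-survival members. Filled points, which mark an adjusted p of at most 0.05, are Bcl2l11 in F1 and F3 rats and Bid in F3 rats, while the points of Bax, Bak1, Bad and Bcl2l2 lie within 0.20 of 0.

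Counted over the members, 1 of 9 passed in F1 against AL, and it was higher, where 6.56% of all 13050 features passed and 3.87% passed as higher. In F2 against AL 0 of 9 passed, with 0.858% of all features passing and 0.490% passing as higher, 1 of 9 members at an unadjusted p under 0.05 in edgeR, and 0 of 9 called at an adjusted p of at most 0.05 in DESeq2. In F3 against AL 2 of 9 passed, both higher, where 12% of all features passed and 6.28% as higher. In F2 against F1 0 of 9 passed against 1.43% of all features, and in F3 against F2 0 of 9 against 5.94%, with 1 and 3 members at an unadjusted p under 0.05 in edgeR and 1 member (Bmf) called by DESeq2 in each. With 9 members, counts of 1 and 2 cannot be set apart from these background shares.

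The groups did not overlap for 3 of 9 members in F1 against AL (Bcl2l11, Bmf and Bcl2), where 28.7% of all features did not overlap. For F2 against AL it was 0 of 9, against 15.5%, and for F3 against AL 2 of 9 (Bcl2l11 and Bid), against 35.6%. For F2 against F1 it was 2 of 9 (Bmf and Bcl2), against 21.8%, and for F3 against F2 3 of 9 (Bax, Bid and Bcl2), against 26.8%. With 9 members, these counts cannot be set apart from the background either. The comparisons with AL rats share the AL samples, and those between days share F2 samples, so they are not independent of each other.

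The median LFC of the 9 members was 0.22 in F1, 0.11 in F2 and 0.34 in F3 rats relative to AL, where that of all features lay between -0.01 and 0.00. By role, the 4 BH3-only members tested had a median LFC of 0.44 in F1, 0.15 in F2 and 0.50 in F3 rats, the 3 pro-survival members 0.22, 0.10 and 0.34, and the 2 effectors 0.03, 0.09 and -0.01. The pro-death and pro-survival sides thus both held members with a positive LFC. All 3 edgeR calls in these comparisons were of BH3-only members, while DESeq2 also called the pro-survival Bcl2l1 in F3 rats (adjusted p = 0.0368). No difference between roles was tested.

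The balance of both sides was also read as ratios of reads within a sample, which do not depend on scaling between samples. A ratio of reads of 2 genes can be compared between samples but not read as a ratio of molecules, since transcript lengths were not used. Bcl2l11 to Bcl2l1 was 0.105, 0.145 and 0.0713 in AL rats, 0.173, 0.120 and 0.118 in F1 rats, 0.146, 0.0988 and 0.133 in F2 rats, and 0.141, 0.105 and 0.129 in F3 rats. Each fasted group overlapped with AL rats. AL sample j was as high as most fasted samples, and for F1 rats the overlap came from this sample alone. F2 sample j (0.0988) and F3 sample j (0.1047) also lay below AL sample i (0.1051).

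The ratio of Bax to Bcl2l1 was 0.134 ± 0.0230 in AL, 0.120 ± 0.00681 in F1, 0.129 ± 0.0195 in F2 and 0.102 ± 0.0107 in F3 rats (mean ± SD, n = 3). Bax to Bcl2 was 10.6 ± 2.84 in AL, 7.64 ± 0.819 in F1, 11.4 ± 4.25 in F2 and 6.81 ± 1.03 in F3 rats. In both ratios the F3 mean was the lowest, and the F3 samples overlapped with AL rats. Bcl2l11 to Bcl2 was 8.14 ± 1.496, 8.73 ± 2.20, 10.7 ± 2.09 and 8.28 ± 0.839 in the same order. The AL, F1 and F3 means of this last ratio differed by less than the SD within groups.

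**Figure D3:**
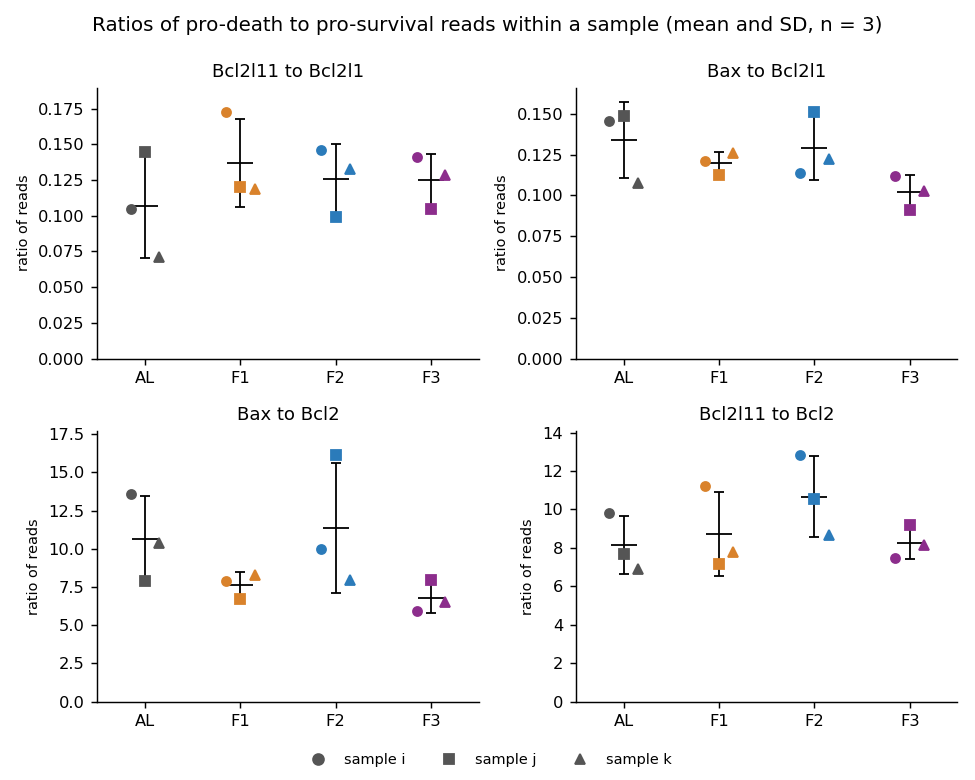
Ratio of reads of a pro-death member to a pro-survival member within each sample (vertical axes, linear, from 0), with one point per sample and black bars for the mean ± SD of 3 samples. The fasted samples overlap with AL rats in all 4 panels, and the widest group is F2 in the Bax to Bcl2 panel.

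Other genes of the pathway were taken from lists of 60 symbols by role, of which 35 were tested. Of the 9 tested among other BCL2-related proteins, 1 was lower in F1 and 1 in F3 against AL, 0 passed in F2 against AL (2 at an unadjusted p under 0.05), 1 was lower in F2 against F1 and 1 was higher in F3 against F2, all in edgeR. Of 11 binding partners, 1 was lower in F3 against AL in edgeR and 0 passed there in the other 4 comparisons, with 0 or 1 at an unadjusted p under 0.05 in each of these, whereas DESeq2 also called Bag3 lower in F2 against AL (adjusted p = 0.0383). Of 11 genes downstream of the mitochondria, 1 was lower in F1 against AL, 1 in F3 against AL and 1 in F3 against F2, and of 4 upstream regulators 0 passed in edgeR, with 1 (Atf4) at an unadjusted p under 0.05 in F2 against F1 and in F3 against F2, and DESeq2 called none of the 4 at an adjusted p of at most 0.05. DESeq2 called 2 related genes that edgeR did not call in any comparison, Bok in F2 against F1 (adjusted p = 0.0379) and the mitophagy receptor gene Bnip3l in F3 against AL (0.0184) and in F3 against F2 (0.0217). Beside these counts, 6.56%, 0.858%, 12%, 1.43% and 5.94% of all features passed in F1, F2 and F3 each set against AL, in F2 against F1 and in F3 against F2, and with 4 to 11 genes a list cannot be set apart from these shares. The lists are incomplete, since identifiers were at hand mainly for symbols early in the alphabet. Tested were 9 of 16 other BCL2-related proteins, 11 of 12 binding partners, 11 of 19 downstream genes and 4 of 13 regulators. Mcl1 and Pmaip1 are among those not analysed here.

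Bik (ENSRNOG00000010359) encodes a BH3-only protein of the endoplasmic reticulum. Its normalized counts were 83.7, 55.2 and 48.9 in AL rats, 82.3, 103 and 120 in F1 rats, 31.1, 48.5 and 48.1 in F2 rats, and 90.0, 81.6 and 99.3 in F3 rats. All F2 samples lay below every sample of the other 3 groups, but F2 sample j (48.5) and AL sample k (48.9) were almost level. The counting error was 11.6% of the mean. Of all features, 15.5% did not overlap in F2 against AL, 21.8% in F2 against F1 and 26.8% in F3 against F2. The LFC was -1.25 ± 0.24 for F2 against F1 (95% interval -1.77 to -0.74, edgeR adjusted p = 0.0298) and 1.08 ± 0.24 for F3 against F2 (0.56 to 1.60, edgeR adjusted p = 0.0202). Relative to AL rats it was 0.69 ± 0.23 in F1 (edgeR adjusted p = 0.0972), -0.56 ± 0.25 in F2 (edgeR adjusted p = 0.355) and 0.52 ± 0.23 in F3 rats (edgeR adjusted p = 0.173), none of which passed, except that F1 against AL passed without AL sample i (LFC 0.97, adjusted p = 0.0460). The first call was lost without F1 samples i (edgeR adjusted p = 0.0634), j (0.135) or k (0.0767), or F2 samples i (0.0617) or k (0.0577), and with only the 6 samples compared (0.0574). The second was lost without F2 sample i (0.0586), or F3 samples i (0.0752) or k (0.0694). Bmf had an LFC of -0.68 and 0.66 in the same comparisons.

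Apaf1 (ENSRNOG00000008022) encodes the scaffold on which cytochrome c activates caspase-9. Its normalized counts were 1320, 1268 and 1250 in AL rats, 989, 930 and 1072 in F1 rats, 1248, 1046 and 1324 in F2 rats, and 856, 962 and 847 in F3 rats. All F1 and F3 samples lay below all AL samples. Apaf1 fell in F1 rats (LFC -0.36 ± 0.09, edgeR adjusted p = 0.0330) and in F3 rats (LFC -0.53 ± 0.09, edgeR adjusted p = 0.00231) relative to AL, and its LFC in F2 rats was -0.09 ± 0.09 (edgeR adjusted p = 0.739). It was lower in F3 than in F2 rats (LFC -0.44 ± 0.09, edgeR adjusted p = 0.0154), and F2 against F1 did not pass (LFC 0.27 ± 0.09, edgeR adjusted p = 0.142) except without F2 sample j (LFC 0.37, adjusted p = 0.0425). The F3 difference from AL passed in all 21 settings. That of F1 passed in 15 of 21 and was lost without AL samples i (edgeR adjusted p = 0.128), j (0.0652) or k (0.0766), F1 samples i (0.0948) or j (0.151), or F3 sample k (0.0503). The difference between F3 and F2 was lost without F3 samples i (0.0784) or k (0.0694), and with only the 6 samples compared (0.0737).

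Bcl2l13, a mitochondrial relative of the family, fell in F1 rats (LFC -0.30 ± 0.08, edgeR adjusted p = 0.0498) and in F3 rats (LFC -0.29 ± 0.08, edgeR adjusted p = 0.0397), and its LFC in F2 rats was -0.08. The F1 difference kept its call in 7 of 21 settings, with the highest adjusted p (0.210) without F1 sample j, and the F3 difference in 13 (highest 0.157, without AL sample j). Bag3, a co-chaperone that binds Bcl2, fell in F3 rats (LFC -0.30 ± 0.08, edgeR adjusted p = 0.0259), with an LFC of -0.17 in F1 and -0.31 in F2 rats that did not pass in edgeR, while the F2 difference passed in DESeq2 (adjusted p = 0.0383). The F3 call of Bag3 was kept in 16 of 21 settings (highest adjusted p 0.111, without AL sample j). Bok, a relative of the effectors, had an LFC of -0.36 ± 0.10 for F2 against F1 (edgeR adjusted p = 0.0887), which did not pass in edgeR and passed in DESeq2 (adjusted p = 0.0379).

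**Figure D4:**
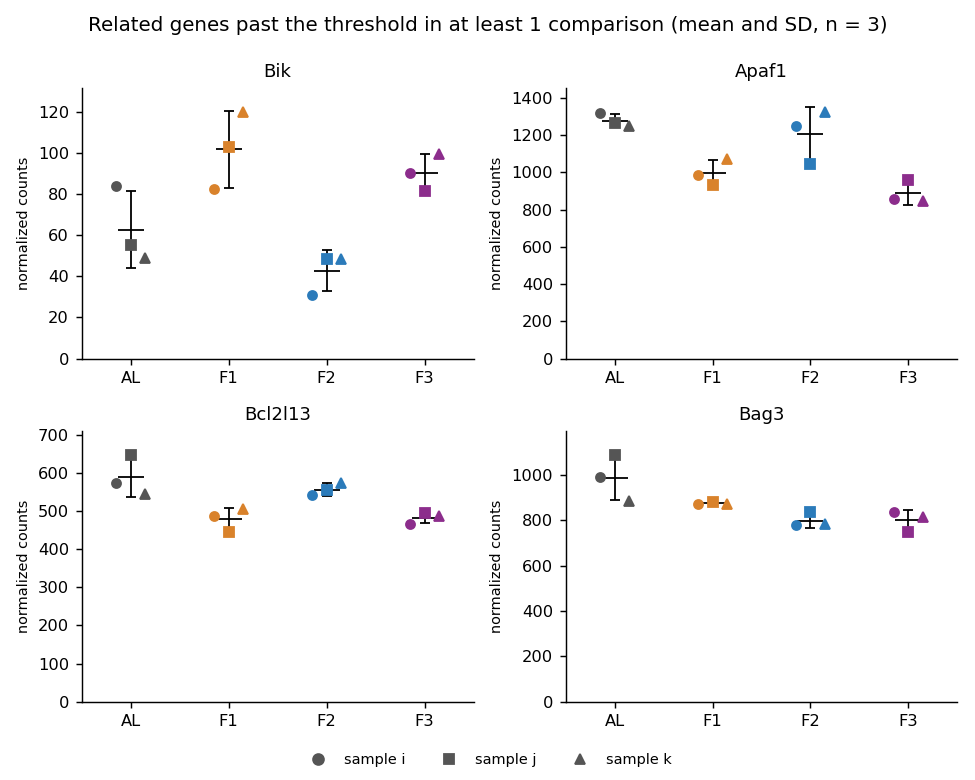
Normalized counts (vertical axes, linear, from 0) of the 4 genes of the related lists that passed the threshold in at least 1 comparison, with one point per sample and black bars for the mean ± SD of 3 samples. Bik is lowest in F2 rats, with all 3 samples at or below 48.5, and Apaf1 is lower in all F1 and F3 samples than in all AL samples.

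The genes whose pattern over the 12 samples was most like that of 2 members were named by Pearson's r of log2 CPM, among 1263 genes with a symbol and a mean of at least 100 normalized counts. Only 2043 of the 13050 features tested had a symbol, mainly those early in the alphabet. Genes without a symbol were not searched and may be more alike. The r values are a description, and the samples they share set them in part. For Bcl2l11 the genes named were Agpat2, an enzyme of phosphatidic acid synthesis (r = 0.922), Adgrg1, an adhesion G protein-coupled receptor (r = 0.918), and Bcor, a transcriptional corepressor (r = 0.917). For Bcl2l1 they were Ccdc59 (r = 0.821), Anapc2, a subunit of the anaphase-promoting complex (r = 0.821), and Acaa1b, a peroxisomal thiolase (r = 0.793). Agpat2 had 875 ± 346 normalized counts in AL, 1772 ± 126 in F1, 1687 ± 318 in F2 and 1996 ± 380 in F3 rats (mean ± SD, n = 3).

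The labelled cell type was checked with markers. Of 6 endothelial markers, 3 had an identifier (Pecam1, which encodes CD31, Abcb1a and Abcg2), and their summed normalized counts ran from 127528 to 146843 per sample with no marker at 0. Of 8 microglial markers 6 had one, with sums of 56.7 to 134, and of 7 pericyte and smooth muscle markers 3 had one (Abcc9, Anpep and Acta2), with sums of 1908 to 4372 in AL, 2066 to 2365 in F1, 2451 to 4744 in F2 and 1689 to 4443 in F3 rats. Of 4 astrocyte markers only Aldoc had one, at 1825 to 2155 in AL, 1702 to 2277 in F1, 1530 to 2239 in F2 and 1545 to 1588 in F3 rats. Its F3 samples lay below its AL samples, where 35.6% of all features did not overlap between these groups. Of 3 red blood cell markers only Alas2 had one, with 36.1 to 110 in all samples, and neuronal and oligodendrocyte markers are not analysed here. The part of Aldoc-bearing cells in the F3 results for Bcl2l11 and Bid was not tested.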

How the data were processed

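RNA of 12 samples of cerebral endothelial cells (3 each from AL, F1, F2 and F3 rats) was analysed from 48 files, 4 technical replicates per sample. After trimming and quality filters, the authors used STAR for alignment to Rnor_6.0, kept reads with a single match and counted those on exons by HTSeq 0.5.3. The deposited values are raw counts, without normalization. The strand setting was not given in the sources used here, so overlapping genes may share reads. Technical replicates were summed. One of F1 sample k has a title of 1 day and a label of 2 days of fasting, and was kept in F1. It differed from the other 3 by no more than sampling noise (chi-square per degree of freedom 1.00).

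Symbols came from tables of 1993 genes and a shorter one, pairing 2043 of 13050 tested features, so Bbc3 had none. Features with at least 1 read in each sample entered the quasi-likelihood test (edgeR 4.0.16 in R 4.3.3, robust, TMM, 4 group means), adjusted by Benjamini-Hochberg over all features. Members, lists, tests and alternatives were chosen with earlier results of these data known. All members are named, and related genes if they pass in at least 1 comparison or are defining examples of their role. Alternatives were DESeq2 1.42.0 (its test and its size factors), total counts, no filter, at least 10 reads, a block for the sample letter, the 6 samples compared alone, and each sample left out. On simulated data with 12800 genes, the test found 78.6% of genes with an LFC of 1 and 40.8% with an LFC of 0.5 for F1 against AL, with 5.65% of calls at unchanged genes. For F2 and F3 against AL it found 84.7% and 79.6%, and 42.9% and 40.8%, with 10.7% and 4.84% of calls at unchanged genes. The F1 and F2 shares were above the threshold of 0.05. The simulation changed 200 genes, alike in all fasted groups, which is fewer than were called in F1 and F3 against AL in the data. Counting error does not cover PCR duplicates. The result of 1 gene of the related lists is not reported here.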

Additional observations from a re-analysis of the deposited data

Results flagged for a closer look

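Bik differed between the days of fasting by a test of the difference itself, with 3 samples per group. Its LFC was -1.25 for F2 against F1 (edgeR adjusted p = 0.0298) and 1.08 for F3 against F2 (edgeR adjusted p = 0.0202). The calls were kept in 15 and 18 of 21 settings. The groups did not overlap, which also held for 21.8% and 26.8% of all features in these comparisons. Apaf1 was lower in F3 than in F2 rats by the same kind of test, with an LFC of -0.44 (edgeR adjusted p = 0.0154). This call was kept in 18 of 21 settings. No explanation of these differences was tested.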

How the results depend on the processing

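Sample letters were tried as a replicate block. The check gave correlations of deviations between -0.111 and 0.207 for samples of the same letter and between -0.252 and 0.283 for different letters. Because these ranges overlap, the check cannot decide whether the letters pair the samples. With the replicate block the members called stayed at 1, 0, 2, 0 and 0 in the comparisons of F1, F2 and F3 with AL, of F2 with F1 and of F3 with F2. All features called fell from 186 to 108 in F2 against F1. Bcl2l13 lost its calls under the block in F1 (edgeR adjusted p = 0.0738) and F3 rats (0.0576). Only the 6 samples compared gave 0 members in F1 against AL and 1 in F3 against AL, and 0, 56 and 262 features in F2 against AL, F2 against F1 and F3 against F2. With no filter, 0 members were called in F1 and 1 in F3 against AL. DESeq2 called 3 members in F3 against AL, 1 in F2 against F1 and 1 in F3 against F2. It called 359, 616 and 1242 features in F2 against AL, F2 against F1 and F3 against F2. Total counts called 1 member in F3 against F2. The sign of Bak1 in F3 against AL turned with total counts (-0.0299), and that of Bcl2l1 in F2 against F1 with DESeq2's size factors (0.000242), total counts (0.0218) and DESeq2 (0.000241), values close to 0 that did not pass the threshold. With each sample left out in turn, members called ranged from 0 to 1 in F1 against AL, 0 to 0 in F2 against AL, 0 to 3 in F3 against AL, 0 to 0 in F2 against F1 and 0 to 1 in F3 against F2. Features called ranged from 308 to 1451, 35 to 162, 792 to 2368, 0 to 217 and 164 to 783 in that order. The cause of these changes was not tested.

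Leaving out a sample turned the sign of LFC that were close to 0 and passed no threshold. The ranges were -0.0679 to 0.00254 for Bax in F3 against AL and -0.0670 to 0.196 in F2 against F1. For Bak1 they were -0.0586 to 0.0303, -0.0485 to 0.0408 and -0.0109 to 0.0431 in F1, F2 and F3 against AL, -0.0451 to 0.0613 in F2 against F1 and -0.0255 to 0.0613 in F3 against F2. For Bad they were -0.0544 to 0.212 in F2 and -0.0303 to 0.00552 in F3 against AL, -0.126 to 0.140 in F2 against F1 and -0.226 to 0.0402 in F3 against F2. For Bcl2l11 they were -0.259 to 0.0204 in F2 against F1 and -0.0172 to 0.240 in F3 against F2. For Bcl2 in F2 against AL the range was -0.0525 to 0.315, for Bcl2l1 in F2 against F1 -0.0523 to 0.0472, for Bcl2l2 -0.111 to 0.0255 in F1 and -0.00181 to 0.101 in F2 against AL, and for Apaf1 in F2 against AL -0.157 to 0.00749. With 3 samples per group, small differences may have been missed, and an interval that holds 0 does not show that a gene was unchanged.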
